A study of Mus musculus with 12 samples.

Results

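The core circadian clock genes were followed in the islets of wild-type and Wfs1-mutant mice: Arntl, Clock, Per1, Per2, Per3, Cry1, Cry2, Nr1d1, Nr1d2 and Dbp. They were chosen by name, and each matched 1 entry, so that 10 of the 24078 entries of the islet expression table are described. Islet RNA was sequenced from 12 male mice, 4 of each genotype. WT mice carried no mutant allele, Wfs1HZ mice were heterozygous and Wfs1KO mice homozygous for Wfs1tm1Koks, in which most of exon 8 of Wfs1 is replaced by LacZ and a truncated fusion protein is made. Animals of every genotype were F2 hybrids of 129S6/SvEvTac and C57BL/6, 5 to 6 months old, kept in 12 h of light and 12 h of dark. Islets were freed with collagenase, picked by hand and kept overnight in medium with 4.5 g/L glucose and 10% fetal bovine serum. The paper places this culture before the secretion assay and does not say when RNA was taken, so the levels may be those of cultured islets. Each animal gave 1 value per gene at 1 time, and the hour of killing or of RNA isolation is not given in the sources used here. Values are RPKM, read counts divided by transcript length and by library size, a scale on which genes of different length can be compared.

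The circadian clock is a feedback loop of transcription that runs in most cells with a period of about a day. ARNTL (also called BMAL1) and CLOCK bind E-boxes as a pair and drive Per, Cry, Nr1d1, Nr1d2 and Dbp, PER and CRY proteins then repress that pair, and NR1D1 and NR1D2 (REV-ERB alpha and beta) repress Arntl through ROR elements. Arntl is therefore known to peak at the opposite phase to Dbp and Nr1d1 in most tissues, and beta cells hold such a clock that times insulin secretion.

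Upstream sequence was read for the genes of the loop from RefSeq, build GRCm38.p6, as the 250 bases before each annotated transcript start. Entries were read for 9 of the 10 genes, all but Per2, with 13 starts in all. Both strands were searched for an E-box (CACGTG), a D-box (TTANGTAA), a cyclic AMP response element (TGACGTCA) and the letters TNGGTCA. The last are a loose form of the core of a ROR element. N is any base, and no match overlapped another in these genes. The 4 windows below are shown because they hold these letters in an activator, in 2 repressors and in a gene with D-box letters. The Nr1d1 window is shown because Nr1d1 varied with Per1 over the animals. Letters of a match are in capitals, and all are written 5′ to 3′ on the strand of the gene.
Arntl, chr7:113207215-113207464, plus strand: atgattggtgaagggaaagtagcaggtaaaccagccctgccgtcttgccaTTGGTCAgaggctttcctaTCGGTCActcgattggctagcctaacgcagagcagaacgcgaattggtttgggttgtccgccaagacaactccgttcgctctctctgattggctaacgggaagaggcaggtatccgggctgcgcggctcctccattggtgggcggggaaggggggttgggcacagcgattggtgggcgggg
Per1, chr11:69098699-69098948, plus strand: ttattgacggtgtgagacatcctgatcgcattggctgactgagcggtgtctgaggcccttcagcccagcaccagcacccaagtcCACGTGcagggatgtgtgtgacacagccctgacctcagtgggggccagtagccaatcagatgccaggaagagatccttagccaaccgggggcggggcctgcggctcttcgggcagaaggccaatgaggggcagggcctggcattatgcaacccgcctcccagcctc
Per3, chr4:151044666-151044915, minus strand: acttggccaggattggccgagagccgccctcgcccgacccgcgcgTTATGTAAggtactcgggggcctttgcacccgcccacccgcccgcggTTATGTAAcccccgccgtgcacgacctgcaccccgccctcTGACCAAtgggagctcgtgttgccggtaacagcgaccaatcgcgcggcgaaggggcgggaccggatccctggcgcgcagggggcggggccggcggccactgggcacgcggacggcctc
Cry1, chr10:85185055-85185304, minus strand: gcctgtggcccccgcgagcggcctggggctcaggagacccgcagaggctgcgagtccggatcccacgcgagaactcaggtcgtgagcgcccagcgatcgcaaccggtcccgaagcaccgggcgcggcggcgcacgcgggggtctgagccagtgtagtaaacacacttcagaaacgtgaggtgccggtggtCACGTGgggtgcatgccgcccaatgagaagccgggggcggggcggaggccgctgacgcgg
Nr1d1, chr11:98775378-98775627, minus strand: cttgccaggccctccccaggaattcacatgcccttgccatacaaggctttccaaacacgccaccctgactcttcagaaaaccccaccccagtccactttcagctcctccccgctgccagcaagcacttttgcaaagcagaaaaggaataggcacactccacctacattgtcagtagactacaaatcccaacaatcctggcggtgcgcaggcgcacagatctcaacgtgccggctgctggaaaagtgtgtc
The E-box letters lay at -166 to -161 from the start of Per1 and at -60 to -55 from that of Cry1, and 6.02% of 32851 windows of the same length held them. The Per3 window held the D-box letters at -205 to -198 and again at -158 to -151, against 2.06% of all windows with at least 1 match. The letters TNGGTCA stood at -200 to -194 and -181 to -175 in Arntl, and 9.19% of windows held them. On the minus strand they stood at -118 to -112 in Per3 and at -133 to -127 in Cry2. In every match of these genes N was T or C, and none is taken here as a ROR element. The cyclic AMP element letters were in none of the 13 windows and in 1.55% of all windows. No match was found in the windows of Clock, Nr1d1, Nr1d2 and Dbp. Such matches describe letters in these windows, and binding was not measured.

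Depth was estimated from the steps between low values of short RNAs and ran from 2171000 to 9478000 reads per animal. Of those low values, 95.9% to 100% lay within 0.1 of a whole read. The estimates are of reads implied by the RPKM scale. The paper reports many more reads per sample, and the difference was not examined. The targeted gene followed the labels: Wfs1 was 24.9 to 33.9 RPKM in WT, 4.69 to 16.4 in Wfs1HZ and 2.45 to 6.61 in Wfs1KO (log2 fold change of Wfs1KO against WT -2.76, limma adjusted p = 0.04). Among beta cell markers, Mafa, a beta cell transcription factor, was listed at 0 in every WT animal. It was at most 0.35 RPKM in Wfs1HZ and 0.11 in Wfs1KO, with a median of 0 in each genotype. The 7 beta markers together held 2.76% to 28.8% of all RPKM in an animal. Exocrine RNA differed widely: 8 of 9 acinar markers were matched (Amy2a2 was not), none was at 0 in every animal, and their sum was 50969 to 112756 RPKM in WT, 8442 to 294527 in Wfs1HZ and 7979 to 264010 in Wfs1KO. Wfs1HZ animal 4 (38.8% of all RPKM) and Wfs1KO animal 3 (39.9%) were highest, Wfs1HZ animal 2 (1.87%) and Wfs1KO animal 4 (1.52%) lowest. The latter pair also stood apart over all transcripts, with a median Spearman rho to the other animals of 0.819 and 0.885 against 0.916 to 0.941 for the other 10. Wfs1HZ animal 2 and Wfs1KO animal 4 also had the highest share of other endocrine markers such as Gcg (37.3% and 45.8% of all RPKM). Their share of the beta markers was the lowest (2.76% and 4.24%). In whole islets fewer cells of a type and less RNA per cell cannot be told apart.

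All 10 clock genes were detected in every animal. Nr1d1 had the highest level, with a mean of 82.9 ± 22.3 RPKM (SD, n = 12), and was above Clock in 12 of 12 animals. Clock (32.9 ± 9.82 RPKM) was above Nr1d2 (25.1 ± 7.51) in 11 of 12 animals, and Nr1d2 was above Cry2 (19.9 ± 7.47) in 9. The levels of Cry2, Per1 (15.2 ± 4.89) and Cry1 (12.9 ± 3.88) were not separated by animal, since Cry2 was above Per1 in 7 of 12 and Per1 above Cry1 in 8. Cry1 was above Per2 (9.12 ± 2.27 RPKM) in 12 of 12 animals. Below Per2 came Dbp (7.61 ± 2.85), Arntl (5.17 ± 1.56) and Per3 (4.62 ± 2.69), and neighbours in that order changed places in 3 to 5 animals. Clock stood second and its partner Arntl ninth. The estimated reads behind a value were fewest for Dbp (16.1 in Wfs1HZ animal 2), Arntl (21.1 in WT animal 3) and Per3 (33.7 in Wfs1HZ animal 4) and at least 98.2 in every animal for the other 7 genes. These estimates cover counting error only.

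**Figure D1:**
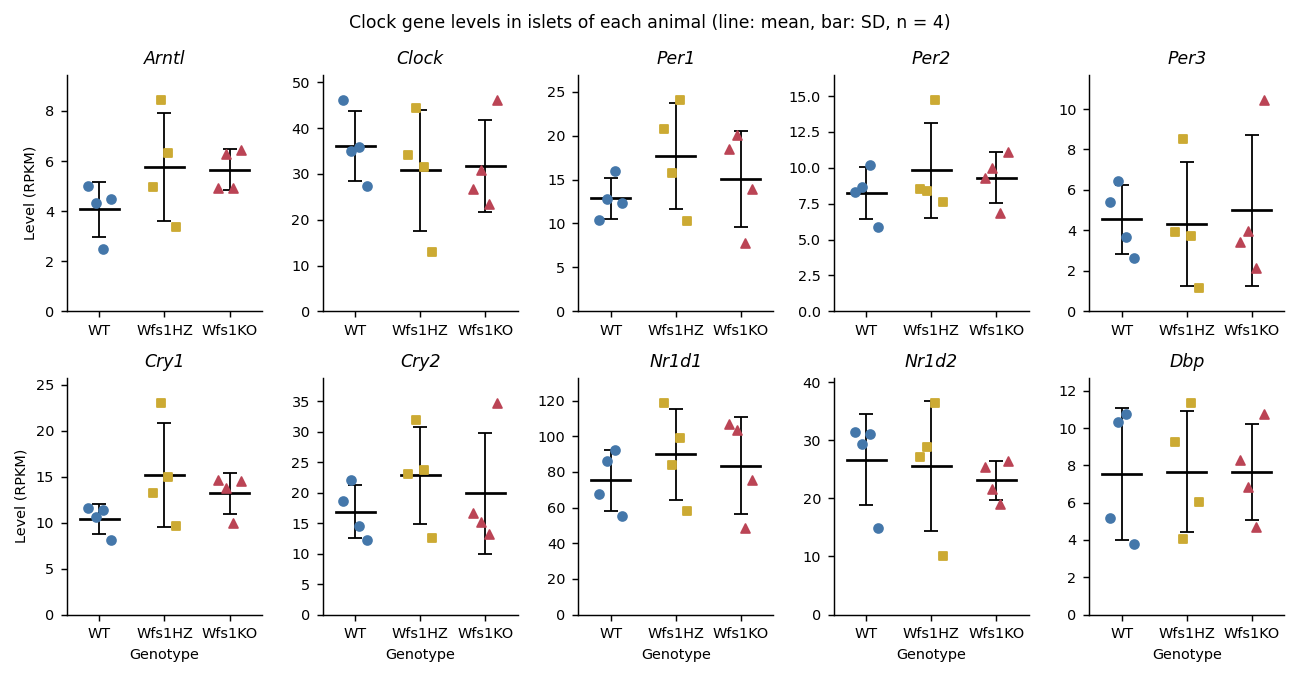
Level in RPKM (y axis, from 0) of each of the 10 clock genes by genotype (x axis); points are animals, lines the mean and bars the SD, n = 4. Every panel shows genotypes that overlap, and Nr1d1 sits highest, between 48.7 and 119 RPKM.

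Arntl encodes the activator BMAL1 and lies on chromosome 7 (113207465 to 113314126, plus strand, 21 exons in its longest coding transcript). In the 4 WT animals Arntl was 5.0, 4.33, 2.47 and 4.50 RPKM. The Wfs1HZ animals had 4.98, 8.44, 6.34 and 3.35 RPKM of Arntl, and the Wfs1KO animals 4.94, 6.30, 4.94 and 6.46. The genotypes overlapped, because the highest WT value was above the 2 lowest of Wfs1KO by less than 0.1 RPKM and WT animal 3 was lowest of all. The mean level of Arntl was 5.66 ± 0.834 RPKM in Wfs1KO and 4.08 ± 1.11 in WT (SD, n = 4), a log2 fold change of 0.50 ± 0.27 (SE) with a limma adjusted p = 0.879. Its 95% interval ran from 0.933-fold to 2.14-fold, and an exact two-sided permutation test gave p = 0.0857, where 0.0286 is the smallest p that 4 against 4 animals allow. Without WT animal 3 the log2 difference was 0.28.

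Clock, which encodes the histone acetyltransferase that pairs with ARNTL, lies on chromosome 5 (76209868 to 76304792, minus strand, 23 exons). Clock was 46.1, 35.1, 35.9 and 27.4 RPKM in WT, 34.2, 44.4, 31.4 and 12.9 in Wfs1HZ and 26.8, 30.8, 23.4 and 46.1 in Wfs1KO. The lowest value was that of Wfs1HZ animal 4, and the highest values of WT and Wfs1KO were alike. Its log2 fold change was -0.21 ± 0.24 (SE) between Wfs1KO and WT and -0.34 ± 0.36 between Wfs1HZ and WT. Without Wfs1HZ animal 4 the latter was 0.03.

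The Per genes encode the period repressors. Per1 (chromosome 11, 69095217 to 69109960, plus strand) was 10.4, 12.8, 16 and 12.3 RPKM in WT. In Wfs1HZ it was 20.8, 15.7, 24.1 and 10.3 RPKM, and in Wfs1KO 18.4, 20.1, 7.76 and 14.0. Both mutant groups reached past the WT range on both sides, and the SD of Per1 was 2.33 in WT, 6.01 in Wfs1HZ and 5.50 in Wfs1KO (n = 4 each). Per2 (chromosome 1, 91415982 to 91459324, minus strand) was 8.31, 8.63, 10.2 and 5.86 RPKM in WT, 8.52, 8.38, 14.7 and 7.63 in Wfs1HZ and 9.26, 10.0, 6.87 and 11.1 in Wfs1KO. Wfs1HZ animal 3 was highest in Per1 and in Per2. Per3 (chromosome 4, 151003652 to 151044665, minus strand) was the most variable of the 10 genes: it was 5.41, 6.44, 3.67 and 2.64 RPKM in WT, 3.94, 8.52, 3.70 and 1.13 in Wfs1HZ and 3.41, 3.99, 2.13 and 10.5 in Wfs1KO. The highest Per3 value was 9.25 times the lowest, and the Wfs1HZ group alone held a 7.54-fold range.

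Cry1 and Cry2 encode the cryptochromes, which bind CLOCK and ARNTL together with PER proteins. Cry1 (chromosome 10, 85131700 to 85185064, minus strand) was 11.5, 10.6, 11.3 and 8.09 RPKM in WT, 13.3, 23.0, 15.0 and 9.59 in Wfs1HZ and 14.6, 13.7, 9.90 and 14.5 in Wfs1KO. Of the 8 mutant animals 6 were above every WT animal, and the remaining pair, Wfs1HZ animal 4 and Wfs1KO animal 3, were those with the most acinar RNA. The Cry1 log2 fold change was 0.34 ± 0.20 (SE) between Wfs1KO and WT (limma adjusted p = 0.879, exact permutation p = 0.114) and 0.49 ± 0.28 between Wfs1HZ and WT (limma adjusted p = 1, exact permutation p = 0.143). Without Wfs1KO animal 3 the former was 0.47 and passed an unadjusted threshold of 0.05 in limma, and under median-of-ratios scaling, which divides each animal by the median ratio of its transcripts to their geometric means, the latter passed it too, while no adjusted p was under 0.05 in either. Cry2 (chromosome 2, 92403646 to 92434043, minus strand) was 18.7, 22.0, 14.6 and 12.2 RPKM in WT, 23.1, 31.9, 23.7 and 12.6 in Wfs1HZ and 16.6, 15.1, 13.2 and 34.7 in Wfs1KO. The highest Cry2 values were in Wfs1KO animal 4 and Wfs1HZ animal 2, which had the least acinar RNA.

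Nr1d1 and Nr1d2 encode the nuclear receptors that repress Arntl. Nr1d1 (chromosome 11, 98767932 to 98775333, minus strand) was 67.7, 86.1, 92.3 and 55.1 RPKM in WT, 119, 83.9, 99.2 and 57.9 in Wfs1HZ and 107, 103, 48.7 and 75.4 in Wfs1KO. Nr1d2 (chromosome 14, 18204054 to 18239127, minus strand) was 31.5, 29.3, 31.0 and 15.0 RPKM in WT, 27.2, 28.9, 36.4 and 10.0 in Wfs1HZ and 25.4, 21.6, 19.1 and 26.4 in Wfs1KO. The group means of Nr1d1 differed by less than 1 SD, and 3 of 4 WT animals were above every Wfs1KO animal in Nr1d2, with WT animal 4 below them all. Without WT animal 4 the Nr1d2 log2 difference of Wfs1KO against WT was -0.42, which passed an unadjusted threshold of 0.05 in limma, against -0.16 ± 0.26 (SE) with it.

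Dbp encodes a PAR bZIP transcription factor that is a direct output of the activators and binds D-boxes (chromosome 7, 45705088 to 45710203, plus strand). Dbp was 5.19, 10.3, 10.8 and 3.79 RPKM in WT, 9.27, 4.04, 11.3 and 6.01 in Wfs1HZ and 8.27, 6.83, 4.70 and 10.8 in Wfs1KO. Each genotype held animals both below 5 and above 9 RPKM, and the means were 7.52 ± 3.54, 7.66 ± 3.26 and 7.64 ± 2.55 RPKM (SD, n = 4). The ratio of Dbp to Arntl within an animal, which in a running clock varies with phase, ran from 0.479 in Wfs1HZ animal 2 to 4.36 in WT animal 3, a 9.06-fold range. The lowest ratio rested on 16.1 estimated reads of Dbp and the highest on 21.1 of Arntl, the fewest of each gene in any animal. Within genotypes the range of that ratio was 5.17-fold in WT, 3.89-fold in Wfs1HZ and 1.75-fold in Wfs1KO, on 4 animals each. Those same low-read values set an end of the range in WT and in Wfs1HZ, and the difference in range was not tested.

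The first question was whether loss of Wfs1 went with a change in any clock gene. In Wfs1KO against WT none of the 10 genes passed an FDR of 0.05 in limma, where 0.0138% of 21701 transcripts tested did, and the lowest adjusted p was 0.879. At an unadjusted p under 0.05 the count was also 0 of 10, against 5.64% of all transcripts, and the groups did not overlap in 0 of 10, against 2.74%. The log2 fold changes ran from -0.21 (Clock) to 0.50 (Arntl), 7 of 10 were above 0, and their median was 0.13 against 0.07 over all transcripts tested. The 95% intervals were wide: for Per2, among the steadiest genes, the interval was 0.789-fold to 1.62-fold, and for Per3 it was 0.459-fold to 2.07-fold. Changes within those limits could not be seen with 4 animals a group.

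Heterozygous animals gave a like count. In Wfs1HZ against WT 0 of 10 genes passed the FDR (0% of all transcripts did), 0 of 10 had an unadjusted p under 0.05 (2.35% of all) and 0 of 10 had groups that did not overlap (1.66% of all). Cry1, Arntl (0.46 ± 0.36, SE), Per1 (0.41 ± 0.28) and Cry2 (0.40 ± 0.31) had the highest log2 fold changes, and 7 of 10 genes were above 0 with a median of 0.23 against 0.04 over all transcripts. Without Wfs1HZ animal 4 the unadjusted count was 3 of 10 (Cry1, Cry2 and Per1), against 5.01% of all transcripts, and under median-of-ratios scaling it was 2 of 10 (Cry1 and Cry2), against 4.12% of all. In Wfs1KO against Wfs1HZ the counts were 0 of 10 by FDR (0% of all), 0 of 10 at an unadjusted p under 0.05 (2.45% of all) and 0 of 10 without overlap (1.43% of all). Those log2 fold changes lay between -0.25 for Per1 and 0.26 for Per3, and 4 of 10 were above 0. Wfs1 itself did not pass the FDR in Wfs1HZ against WT or in Wfs1KO against Wfs1HZ, so a count of 0 by FDR there says little. The WT, Wfs1HZ and Wfs1KO animals are each used in 2 of the 3 comparisons, so the values are not independent of each other.

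**Figure D2:**
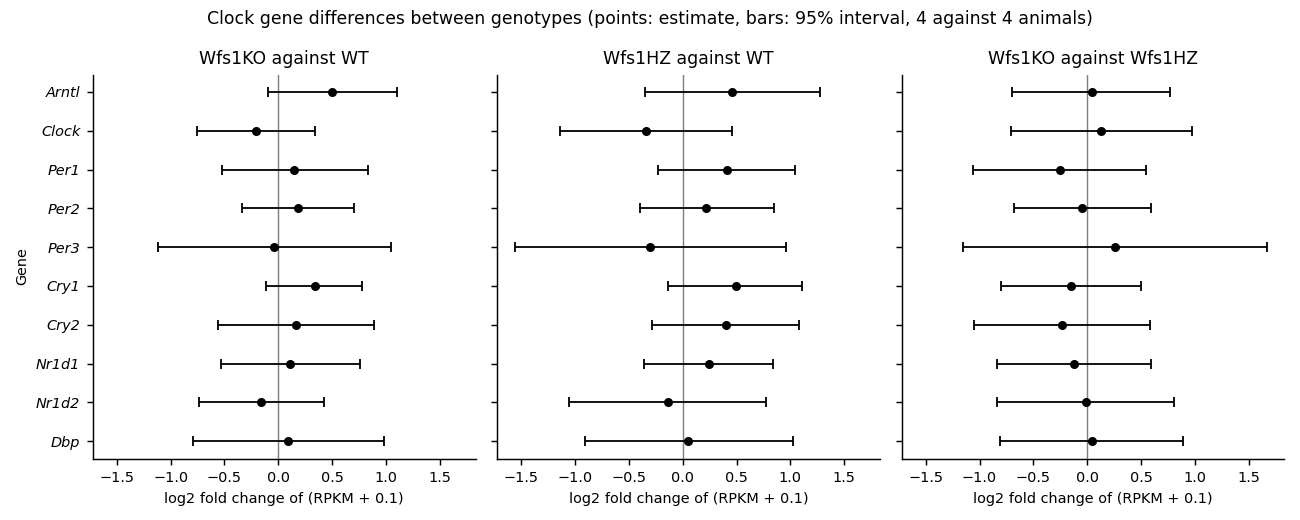
Estimated log2 fold change (x axis) of each clock gene (y axis) in the 3 comparisons, with 95% intervals from limma, 4 against 4 animals. Every interval crosses 0, from the narrow one of Cry1 (-0.11 to 0.78 in Wfs1KO against WT) to the wide ones of Per3.

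The spread between animals of 1 genotype differed between the genes. The SD of log2 levels within genotype was 0.92 for Per3, 0.64 for Dbp, 0.57 for Nr1d2 and 0.54 for Clock. Against transcripts within 2-fold of the same mean level, 87.7% had a smaller SD than Per3, 84.5% a smaller SD than Nr1d2 and 80% a smaller SD than Clock. Cry1 (0.36), Per2 (0.35) and Arntl (0.43) were on the steady side, since 29.2%, 22.3% and 28.5% of transcripts at their levels varied less.

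How the clock genes varied with each other was read from Pearson r of log2(RPKM + 0.1) over the 12 animals for all 45 pairs. As deposited, 44 of 45 pairs had r above 0, the median r was 0.54, and 17 pairs (37.8%) reached 0.6, against 16.3% of all pairs that the 13356 transcripts averaging 1 RPKM or more can form. A permutation test adjusted by Benjamini-Hochberg over the 45 pairs passed 0.05 in 8 pairs, all of them positive. That test asks whether r differs from 0, and many pairs of all transcripts reached 0.6 as well. How many of all pairs were above 0 or would pass was not counted. The counts above 0 and the counts that passed, here and below, are therefore not set apart from the rest of the table. With each genotype's mean subtracted 21 pairs (46.7%) reached 0.6, against 22.4% of all pairs, and 5 passed the adjusted test. The counts depended on scaling and on exocrine RNA: with the log2 acinar sum regressed out 8 pairs (17.8%) reached 0.6, against 8.75% of all pairs, and 5 passed the test. Under median-of-ratios scaling, with factors from 0.632 in Wfs1HZ animal 4 to 1.37 in Wfs1HZ animal 2, 5 pairs (11.1%) reached 0.6 against 4.96% of all, 26 of 45 were above 0 and 1 passed the test. Quantile normalization left 5 pairs (11.1%) at 0.6, against 5.71% of all, and 1 that passed. Over the 8 animals left without the 4 of extreme acinar RNA 14 pairs (31.1%) reached 0.6, against 9.75% of all pairs, and 0 passed.

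**Figure D3:**
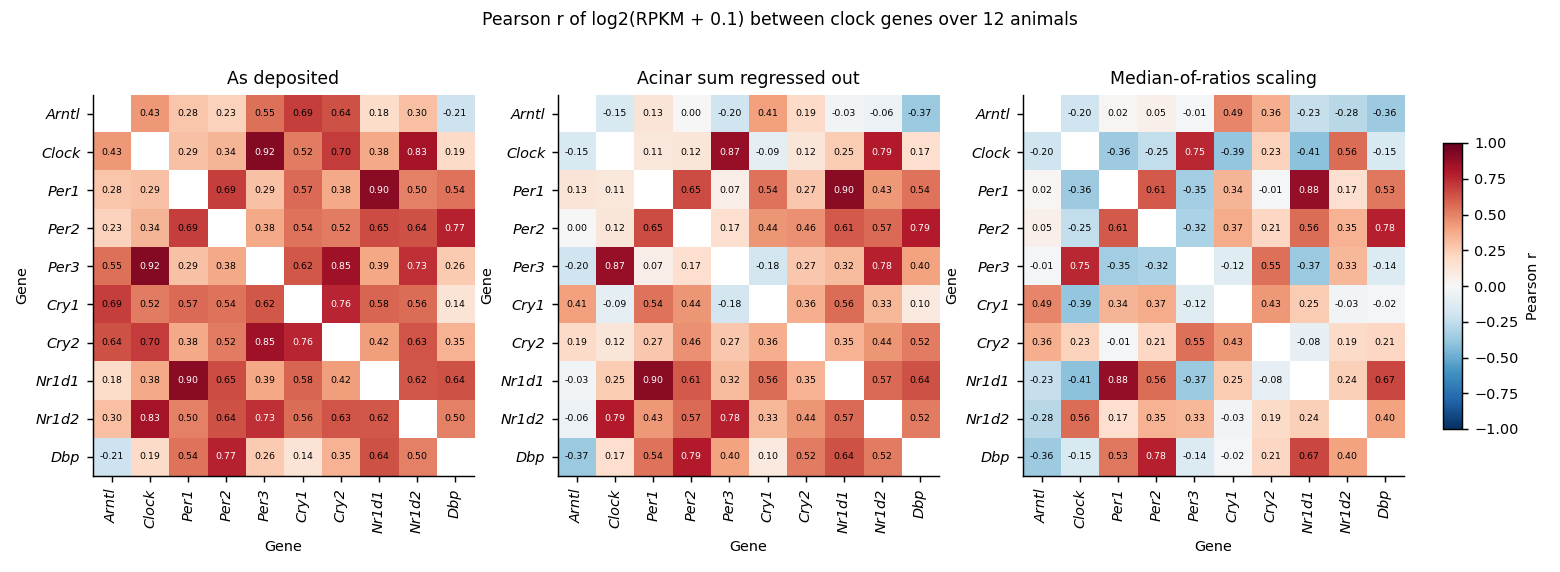
Pearson r (colour and printed value) for each pair of the 10 clock genes (x and y axes) over 12 animals, as deposited, with the acinar sum regressed out and after median-of-ratios scaling. The blocks of Per1 with Nr1d1, Per2 with Dbp and Clock with Per3 keep r of 0.75 or more in all 3 panels, while most other red cells fade or turn.

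Per1 and Nr1d1 were among the pairs with the highest r. Their r was 0.90 (permutation p = 8e-05, adjusted p = 0.0018) with Spearman rho 0.91 (permutation p = 0.00012, adjusted p = 0.0054), and r stayed at 0.90 without the 2 animals farthest from the median of Per1, Wfs1HZ animal 3 and Wfs1KO animal 3. Within genotypes r was 0.90 (adjusted p = 0.0326, permutation), with the acinar sum regressed out 0.90, under median-of-ratios scaling 0.88 (adjusted p = 0.0202) and under quantile normalization 0.78 (adjusted p = 0.0684). Nr1d1 was rank 3 among 13355 transcripts by r with Per1, and Per1 rank 7 by r with Nr1d1. The ratio of Nr1d1 to Per1 had an SD of 0.21 on the log2 scale over the 12 animals and a 1.64-fold range, beside a 3.10-fold range of Per1 and a 2.44-fold range of Nr1d1. Both genes lie on chromosome 11, and of their windows printed above only that of Per1 held the E-box letters.

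Per2 and Dbp had r = 0.77 (permutation p = 0.00148, adjusted p = 0.0166) and rho = 0.89 (permutation p = 0.00027, adjusted p = 0.00607). Without WT animal 4 and Wfs1HZ animal 3, the farthest in Per2, their r was 0.68. It was 0.79 within genotypes, 0.79 with the acinar sum regressed out, 0.78 under median-of-ratios scaling and 0.77 under quantile normalization, where the adjusted p was 0.0628 and 0.079 in the last 2. By r with Dbp, Per2 was rank 18 of 13355 transcripts and Nr1d1 rank 125 (r = 0.64), while Per1 had r = 0.54.

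Clock and Per3 had the highest r of the 45 pairs, 0.92 (permutation p = 3e-05, adjusted p = 0.00135), with rho 0.87 (permutation p = 0.00052, adjusted p = 0.0078) and r = 0.86 without Wfs1HZ animal 4 and Wfs1KO animal 4. Within genotypes r was 0.94, with the acinar sum regressed out 0.87, under median-of-ratios scaling 0.75 (adjusted p = 0.0873) and under quantile normalization 0.87 (adjusted p = 0.0072). Per3 was rank 140 of 13355 transcripts for Clock, since many transcripts shared this course. Clock with Nr1d2 had r = 0.83 (adjusted p = 0.0209, permutation), which was 0.56 under median-of-ratios scaling and 0.64 without the same 2 animals. Per3 with Nr1d2 had r = 0.73 (adjusted p = 0.0438, permutation) and 0.33 under that scaling. The other pairs that passed were Per3 with Cry2 (0.85), Cry1 with Cry2 (0.76) and Clock with Cry2 (0.70), and their r with the acinar sum regressed out was 0.27, 0.36 and 0.12. Pairs described at length were picked for their high r. Among those that did not pass were Per1 with Per2 (0.69, adjusted p = 0.0604) and Nr1d1 with Nr1d2 (0.62, adjusted p = 0.0798), by permutation. Per3 with Dbp (0.26) and Clock with Dbp (0.19) did not pass either.

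**Figure D4:**
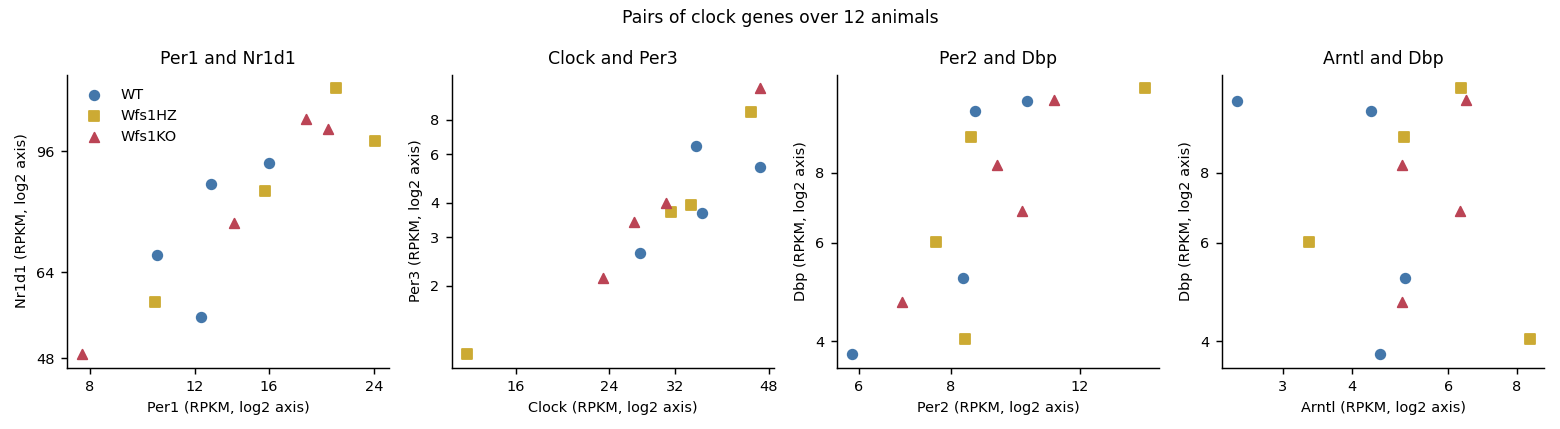
Levels in RPKM on log2 axes of 4 pairs of clock genes, 1 point per animal, coloured by genotype. Per1 with Nr1d1 (r = 0.90), Clock with Per3 (r = 0.92) and Per2 with Dbp (r = 0.77) rise together across the genotypes, and Arntl with Dbp (r = -0.21) does not.

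Arntl, whose peak is known to oppose that of Dbp and Nr1d1, had the only negative r of the 45 pairs as deposited, with Dbp: -0.21 (permutation p = 0.523, rho = 0.04, permutation p = 0.898). It was -0.28 within genotypes, -0.37 with the acinar sum regressed out, -0.36 under median-of-ratios scaling and -0.38 under quantile normalization, and none of these passed a permutation test at 0.05. Leaving out WT animal 3 gave 0.02, leaving out Wfs1HZ animal 2 gave 0.03 and leaving out both, the farthest in Arntl, gave 0.42, so the negative sign rested on those animals. Arntl with Nr1d1 had r = 0.18 as deposited and -0.23 under median-of-ratios scaling, and Arntl with its partner Clock 0.43 and -0.20. By r with Dbp, Arntl was rank 11719 of 13355 transcripts. The opposite course of activator and output was not detectable in these 12 animals, on 21.1 to 139 estimated reads of Arntl and 16.1 to 169 of Dbp. The hour of sampling is not given, and animals sampled at a single phase could not show that course.

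By the fixed rule, the transcripts most and least like Arntl and Dbp were named by r over the 12 animals, as a description. Highest with Dbp were Klhdc4 (0.93), Ckb (0.89), Gstz1 (0.84), Dnm1 (0.83) and Ttc22 (0.83), and lowest were Tst (-0.89), P2ry14 (-0.85), Pcdhb21 (-0.81), Fmn1 (-0.81) and Slc25a35 (-0.79). Highest with Arntl were A330070K13Rik (0.95), Ext1 (0.91), Orc1 (0.91), Cd72 (0.89) and Dsn1 (0.88), and lowest were Slc38a3 (-0.76), Nudt1 (-0.76), Gal (-0.72), Ifitm1 (-0.71) and Cckar (-0.70). Of the 5 highest with Arntl, only Ext1 had a mean above 2 RPKM (18.5), and A330070K13Rik, Cd72 and Dsn1 were listed at 0 in at least 1 animal. Slc38a3 and Nudt1, among the lowest with Arntl, were also at 0 in at least 1 animal. In the lists for Dbp, Dnm1 (1.94) and Pcdhb21 (1.06) had means under 2 RPKM. The animals differed in depth and exocrine RNA, which bear on all transcripts of an animal at once, and none of the named transcripts is a clock gene of the lists used here.

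All 10 clock genes had a negative r with exocrine RNA over the 12 animals. Per3 had r = -0.92 with the log2 acinar sum (permutation p = 6e-05, adjusted over 10 genes 0.0006, rho -0.94), Cry2 -0.87 (adjusted p = 0.00175, rho -0.78), Clock -0.76 (adjusted p = 0.0142, rho -0.74), Cry1 -0.73 (adjusted p = 0.0181, rho -0.62) and Arntl -0.66 (adjusted p = 0.0398, rho -0.68), all by permutation. Nr1d2 (-0.51), Per2 (-0.35), Nr1d1 (-0.30), Per1 (-0.29) and Dbp (-0.11) did not pass. Without the 2 animals farthest in acinar RNA r was -0.91 for Per3, -0.79 for Clock, -0.64 for Cry2, -0.51 for Cry1 and -0.40 for Arntl. It was then -0.72 for Nr1d2, -0.63 for Nr1d1, -0.55 for Per1, -0.45 for Per2 and -0.41 for Dbp, so the order of the genes rested in part on those animals and the 5 that passed were no longer apart from the other 5. Within genotypes r was -0.94 for Per3, -0.83 for Clock, -0.91 for Cry2, -0.82 for Cry1 and -0.71 for Arntl, and between -0.53 (Nr1d2) and -0.10 (Dbp) for the rest. Over the 13356 transcripts the median r with the acinar sum was -0.48, 82.8% were below 0 and 35% were at -0.6 or less, so a negative r was the rule for the table. The 2 animals with the least acinar RNA also had the highest share of other endocrine RNA and the lowest of beta RNA. An r with the acinar sum therefore cannot be told apart from one with the endocrine make-up of the islets. Whether the clock genes of the islet cells themselves differed between these animals was not tested. With the log2 estimated depth no clock gene passed the adjusted test, and the r values lay between -0.47 for Cry1 and 0.02 for Dbp.

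**Figure D5:**
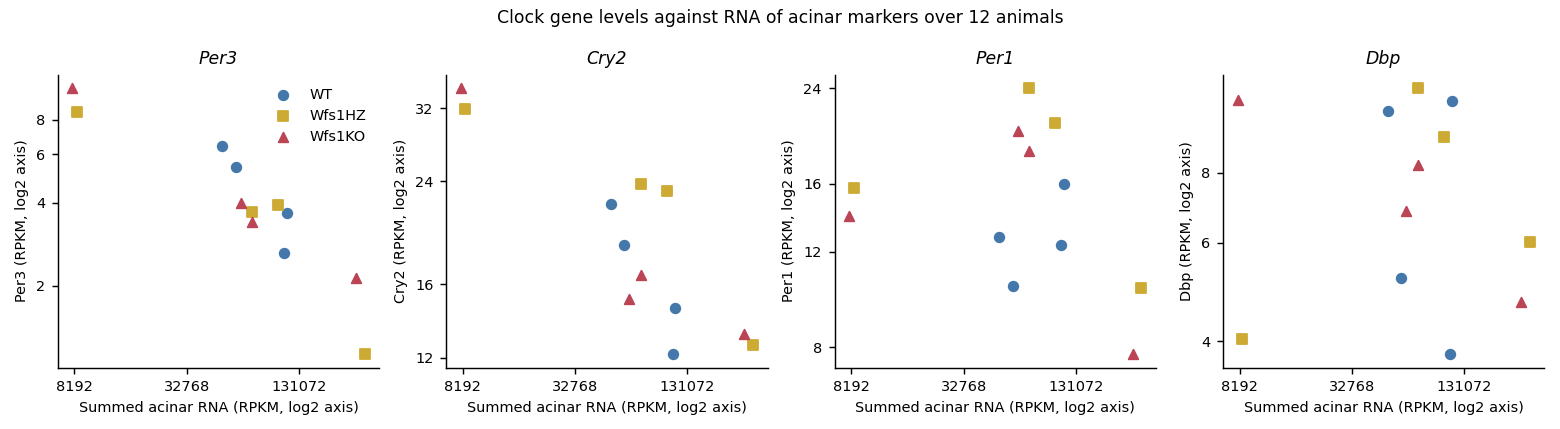
Levels of Per3, Cry2, Per1 and Dbp (y axis, RPKM on a log2 axis) against the summed RPKM of 8 acinar markers (x axis, log2 axis), 1 point per animal, coloured by genotype. Per3 (r = -0.92) and Cry2 (r = -0.87) fall along the axis, while Dbp (r = -0.11) is scattered.

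A further 26 genes of the clock pathway, which modify, accompany or follow the loop, were all matched and tested. In Wfs1KO against WT 2 of 26 were higher and 0 lower at an unadjusted p under 0.05, in Wfs1KO against Wfs1HZ 1 higher and 0 lower, and in Wfs1HZ against WT 1 higher and 0 lower, while none passed the FDR. Usp2, a clock-controlled ubiquitin protease, was 1.24 to 3.01 RPKM in WT and 3.37 to 5.31 in Wfs1KO, which did not overlap, with a log2 fold change of 1.09 ± 0.32 (SE), an exact permutation p = 0.0286 and a limma adjusted p = 0.835. The Wfs1HZ animals, at 2.39 to 5.57 RPKM of Usp2, overlapped both. Bhlhe40, an E-box repressor, was 104 ± 22.4 RPKM in WT and 143 ± 13.8 in Wfs1KO (SD, n = 4), with a log2 fold change of 0.47 ± 0.19 (SE). Its relative Bhlhe41 had a log2 fold change of 0.89 ± 0.31 (SE) in Wfs1HZ against WT. Npas2, which can replace CLOCK, was 7.66 ± 3.29 RPKM in Wfs1KO against 3.71 ± 0.676 in Wfs1HZ (SD, n = 4). The 2 of 26 genes higher in Wfs1KO than WT stand beside 3.91% of all transcripts higher at the same unadjusted threshold. The 1 of 26 higher in Wfs1KO than Wfs1HZ stands beside 1.7%, and the 1 of 26 higher in Wfs1HZ than WT beside 1.09%. Of all transcripts, 1.74%, 0.756% and 1.27% were lower in those comparisons, in that order. Usp2 was the 1 of 26 without overlap in that comparison, beside 2.74% of all transcripts. Its exact p = 0.0286 by permutation follows from the lack of overlap at 4 against 4 animals and adds nothing to it.

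Per1 is also induced in other ways, by cyclic AMP through CREB and by glucocorticoids, so genes known for those inputs were counted. Of 13 CREB-induced genes 4 were higher and 1 lower at an unadjusted p under 0.05 in Wfs1KO against WT, where 3.91% of all transcripts were higher and 1.74% lower, and the list median log2 fold change was 0.50 against 0.07 over all. Egr1, an immediate early transcription factor, was 40.7 to 97.8 RPKM in WT and 133 to 222 in Wfs1KO (1.33 ± 0.29, SE, adjusted p = 0.574 in limma). Egr2 (1.38), Fos (0.89) and Nr4a1 (0.51) were the other 3 higher, and Npas4, an activity-dependent factor, was the 1 lower, at 0.49 to 1.23 RPKM in Wfs1KO and 1.83 to 9.25 in WT. In Wfs1HZ against WT 4 were higher (Jun, Junb, Egr1 and Egr2) and 0 lower, beside 1.09% and 1.27% of all transcripts. In Wfs1KO against Wfs1HZ 0 were higher and 1 lower (Npas4), beside 1.7% and 0.756% of all. With a different test, edgeR, the authors listed Egr1 as higher in Wfs1KO than WT at an FDR under 0.05. They also listed Npas4 as lower in Wfs1KO than Wfs1HZ. Per1 itself had log2 fold changes of 0.15 ± 0.30 and 0.41 ± 0.28 (SE) against WT. Of 5 glucocorticoid-induced genes 1, Sgk1, was higher in Wfs1KO than WT (0.66 ± 0.28, SE, exact permutation p = 0.0571, limma adjusted p = 0.877) and none in the other comparisons. Stromal and endothelial markers had log2 fold changes above 0 in 4 of 4 genes each in Wfs1KO against WT, with medians of 1.40 and 0.75, where 57.8% of all transcripts were above 0. In each list 1 of the 4, Dcn and Cdh5, had an unadjusted p under 0.05, and none passed the FDR. In Wfs1HZ against WT 4 of 4 in each were again above 0, with medians of 0.89 and 0.78, and 0 of 4 had an unadjusted p under 0.05. In the remaining marker lists Slc2a2 (beta) and Sox9 (duct) had an unadjusted p under 0.05 in limma. Slc2a2 was lower in Wfs1KO than in WT (-1.03 ± 0.38, SE) and than in Wfs1HZ (-1.21 ± 0.38, without overlap). Sox9 was higher in Wfs1KO than in WT (0.72 ± 0.21, SE, without overlap). Neither passed the FDR. The part of these markers in the values above was not tested.

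Some clock genes overlap neighbours on the other strand in GENCODE M21. Nr1d1 shares 263 exonic bases with Thra, a thyroid hormone receptor gene, Dbp 539 with Sphk2, a sphingosine kinase gene, Cry2 295 with D930015M05Rik and Arntl 33 with Gm45355. Over the 12 animals the median level was 6.03 RPKM for Thra, 6.83 for Sphk2 and 1.84 for D930015M05Rik. Whether reads were counted by strand is not given in the sources used here, so reads of Dbp and Sphk2 in particular cannot be told apart over the shared bases.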

How the data were processed

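RNA of hand-picked islets was measured in 12 mice, 4 per genotype, and genotypes and animal numbers were taken from the sample labels. The authors made cDNA with the Ovation RNA-Seq System V2 from 10 ng of total RNA, sequenced paired ends of 75 and 35 bp on a SOLiD 5500xl, mapped to mm10 with LifeScope and deposited 1 table of RPKM values, 1 column per animal. The annotation, the counting tool and its use of strand are not given in the sources used here. RPKM were used as log2(RPKM + 0.1), and a fold change on that scale understates changes of low transcripts. Transcripts with a mean under 0.1 RPKM were left out, which kept 21701 and all 10 clock genes.

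Each pair of genotypes was fitted with limma 3.58.1 (R 4.3.3) with a variance trend and Benjamini-Hochberg adjustment over all transcripts, and single genes were also tested by exact two-sided permutation over 70 arrangements. Correlations were tested by two-sided permutation with 100000 resamples. The scripts were tested on simulated data. Reads were estimated from RPKM steps of RNAs under 200 nt and give the counting precision. Positions are from GENCODE M21 (GRCm38) and upstream sequence from RefSeq. The clock genes, the further lists and the markers were chosen with earlier results of these data known. All 10 clock genes were named with values, other genes of the lists where the unadjusted p was under 0.05 or groups did not overlap, and the 5 transcripts at either end of r with Arntl and with Dbp. Alternatives covered pseudocount, filter, scaling, weights, variance, block and each animal left out. 1 further clock gene, which is not among the 26, is not reported here. A count model was not used, because RPKM are not counts.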

Additional observations from a re-analysis of the deposited data

Results flagged for a closer look

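In 3 of 30 sets of 4 animals (10 genes in 3 genotypes) 1 animal lay far from the other 3 on the log2 scale, by a gap of 0.83 to 0.91 of the whole log2 range of the set. Chance alone marks about 1 in 20 such sets. Per2 was 14.73 RPKM in Wfs1HZ animal 3, against 7.63 to 8.52 in the other 3. Cry1 was 9.9 RPKM in Wfs1KO animal 3, the Wfs1KO animal with the most acinar RNA, against 13.7 to 14.6 in the others. Nr1d2 was 14.97 RPKM in WT animal 4, against 29.3 to 31.5 in the others.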

How the results depend on the processing

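No clock gene passed an FDR of 0.05 under any alternative in any comparison. At an unadjusted p under 0.05 the count for Wfs1KO against WT was 1 (Cry1) under median-of-ratios scaling, 1 (Cry1) under quantile normalization and 1 (Per1) without Wfs1KO animals 3 and 4, and 0 to 1 with each animal left out in turn. For Wfs1HZ against WT it was 2 (Cry1 and Cry2) under both scalings and 2 (Cry1 and Per1) with sample weights. It was 1 (Per1) without Wfs1HZ animals 2 and 4, and 0 to 3 with each animal left out. In that comparison 4.12% of all transcripts passed under median-of-ratios scaling and 5.01% without Wfs1HZ animal 4. Shares of all transcripts under the other alternatives are not given, so the counts for both comparisons are not set apart from the rest of the table. Of 540 alternative log2 fold changes 52 changed sign, in 18 of 30 results. In Wfs1KO against WT Cry2 was -0.03 with sample weights. In Wfs1KO against Wfs1HZ Arntl was -0.04 under median-of-ratios scaling, -0.03 under quantile normalization and -0.06 with weights, Clock -0.02 under quantile normalization and -0.06 with weights, and Dbp -0.04 under median-of-ratios scaling and -0.40 with weights. In Wfs1HZ against WT Nr1d2 was 0.20 with weights and Dbp -0.08 under quantile normalization. Leaving out single animals, log2 fold changes of Wfs1KO against WT were -0.01 to 0.44 for Per1, -0.47 to 0.28 for Per3, -0.14 to 0.32 for Cry2, -0.03 to 0.35 for Nr1d1 and -0.18 to 0.31 for Dbp. For Wfs1KO against Wfs1HZ they were -0.19 to 0.24 for Arntl, -0.24 to 0.35 for Clock, -0.49 to 0.03 for Per1, -0.15 to 0.16 for Per2, -0.25 to 0.69 for Per3, -0.35 to 0.07 for Cry1, -0.32 to 0.11 for Nr1d1, -0.42 to 0.20 for Nr1d2 and -0.23 to 0.26 for Dbp. For Wfs1HZ against WT they were -0.56 to 0.03 for Clock, -0.72 to 0.21 for Per3, -0.40 to 0.26 for Nr1d2 and -0.22 to 0.32 for Dbp. Leaving out Wfs1HZ animal 4 turned Clock, Per3 and Nr1d2 in Wfs1HZ against WT.

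The 8 pairs that passed the adjusted permutation test became 1 under median-of-ratios scaling (Per1 with Nr1d1), 1 under quantile normalization (Clock with Per3), 5 with genotype means subtracted, 5 with the acinar sum regressed out and 0 without the 4 animals of extreme acinar RNA. With each animal left out the count was 3 (without WT animal 4 or Wfs1KO animal 3) to 10 (without WT animal 3). The r of Arntl with Clock turned to -0.20, -0.14, -0.15 and -0.21 under median-of-ratios scaling, quantile normalization, acinar regression and without those 4 animals, and that of Arntl with Nr1d1 to -0.23, -0.27 and -0.03 under the first 3. Clock with Dbp was -0.15 and Per3 with Dbp -0.14 under median-of-ratios scaling, and -0.25 and -0.16 under quantile normalization. Arntl with Dbp ran from -0.33 to 0.03 with each animal left out. The cause was not tested for any of these changes. The acinar regression and the fits without the named pairs or set of animals were chosen after seeing the data.

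The animal numbers are shared between genotypes only as numbers. Same-numbered animals had correlations of their deviations from -0.28 to 0.34 over the 3 comparisons, so the numbers were not taken as pairs. With the replicate block 4 pairs passed, and 0 clock genes passed in each comparison. With 4 animals a group and 16.1 to 33.7 estimated reads at the lowest values of Dbp, Arntl and Per3, small changes could not be detected.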
